A study of Rattus norvegicus with 11 samples.

Results

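The transcripts described here are the rat orthologues of mouse long non-coding RNAs (lncRNAs) on the array, taken as every probe that is not a control and whose name begins with MR. The rule found 4407 of the 24684 probes, each with 3 spots (13221 of the 42136 spots). Their names carry 16 prefixes, of which MRAK (3588 transcripts), MRuc (685), MRBC (61) and MRNR (46) were the largest, and the other 12 prefixes held 27 transcripts. In male Wistar rats 50 µl of complete Freund's adjuvant (CFA, killed mycobacteria in oil, 1 mg/ml) was injected under the skin of 1 whisker pad, and trigeminal ganglia (TRG) were taken from both sides 7 days later. RNA of 6 ganglia of the CFA side (rats 1, 2, 3, 5, 6 and 8) and 5 of the contralateral side (rats 1, 2, 3, 5 and 6) was hybridised, 1 single-colour array per ganglion. The contralateral ganglion comes from an injected animal, so it is no untreated control, and it cannot show a change shared by both sides.

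LncRNAs are transcripts longer than most small RNAs and without a long reading frame. Many are spliced and polyadenylated like mRNAs, and some act on the chromatin of neighbouring genes, pair with other RNAs or hold proteins together. In the TRG lie the sensory neurons that serve the face, beside satellite glia and Schwann cells, and lncRNAs tend to differ between cell types more than mRNAs do. The letters after MR appear to be the identifiers of the mouse transcripts from which the probes were designed, AK for full-length cDNAs of a mouse cDNA project, uc for UCSC gene models, BC for another cDNA collection and NR for RefSeq non-coding RNAs. No gene name, sequence or position of an MR transcript was given in the files used here, so none is described.

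The scan headers gave 5 scan times on 3 days. Arrays with the same scan time are taken as 1 slide here, and the slides were not read from a label. Slides 1 and 3 held contralateral arrays (rat 3, and rats 1 and 2), slide 4 CFA rats 2 and 3, slide 5 CFA rats 5, 6 and 8, and slide 2 CFA rat 1 with contralateral rats 5 and 6. Side and slide therefore cannot be told apart on 8 of the 11 arrays, and a difference within slide 2 compares 1 array with 2. The sensory neuron markers fixed for the check had a mean signal (log2) of 13.3 to 13.7 over the 11 arrays, with 8 of 8 measured genes well above background on each of them. The list of central glia (4 of 4 genes measured) ranged from 9.14 to 13.1 on CFA and from 9.23 to 12.5 on contralateral arrays, the anterior pituitary list (6 of 6) from 6.61 to 14.5 and from 6.73 to 13.6, and the neutrophil list (2 of 4) from 8.68 to 12.3 and from 8.30 to 11.8. These lists varied within both groups, and their part in the values of the MR transcripts was not tested.

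Most MR transcripts gave a signal above background in at least 1 ganglion, and most of these in all 11. A transcript was counted as detected on an array when more of its 3 spots were well above background by the scanner software than not. Of the 4407 transcripts, 2484 (56.4%) were detected on all 11 arrays, 1101 (24.98%) on 1 to 10 and 822 (18.7%) on 0. Over all probes the shares were 70.9%, 18.7% and 10.4%. The median normalised signal (log2, mean of the 11 arrays) was 5.09 for MR transcripts, with quartiles of 2.69 and 8.16, beside 9.40 for the mRNA probes, 5.80 for the XR_ lncRNAs and 2.94 for the transcripts of ultraconserved regions (uc.). Signals of different probes depend on the probe as well as on the RNA, so these medians describe the probe sets and give no order of abundance. In total 723 MR transcripts had a mean signal over 10 and 46 a mean signal over 15.

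Detection was also counted by prefix. The share detected on all 11 arrays was 55.9% for MRAK, 57.5% for MRuc, 55.7% for MRBC and 63.0% for MRNR, and 10 of the 12 MRFT transcripts were detected throughout. The median signal was 5.06 for MRAK, 5.07 for MRuc, 4.97 for MRBC, 6.32 for MRNR and 7.30 for MRFT. Transcripts detected on 0 arrays made up 18.6% of MRAK, 20.6% of MRuc and 9.84% of MRBC, where 34.4% were detected on some arrays. No test was made between prefixes, because members of a prefix share the design and are not replicates.

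**Figure D1:**
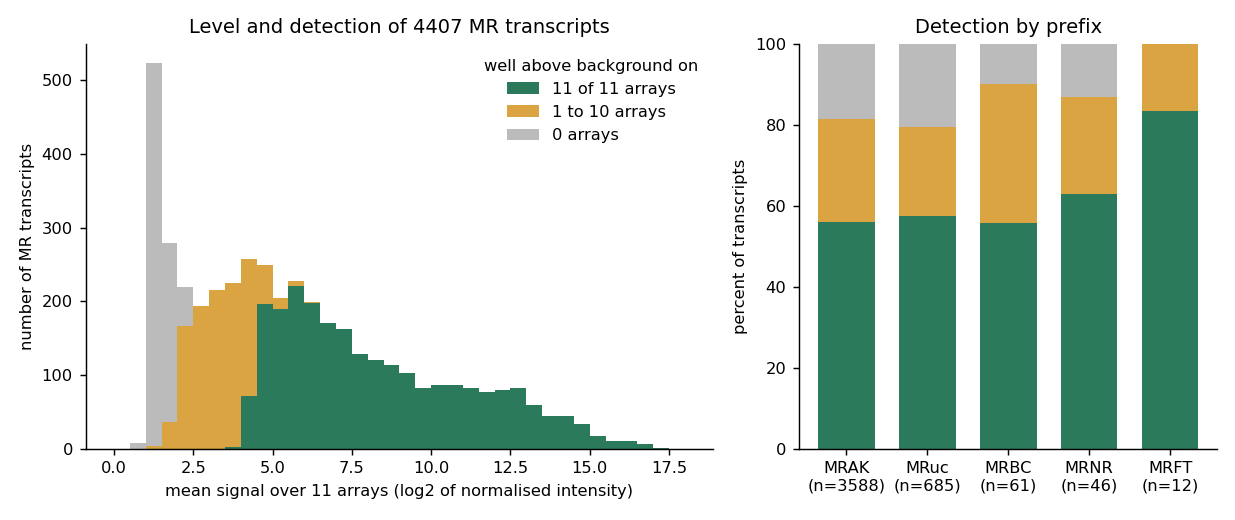
Left, number of MR transcripts by mean signal over the 11 arrays (log2 of the normalised intensity, bins of 0.5), coloured by the number of arrays on which a transcript was well above background. Right, percent of transcripts in each detection class for the 5 prefixes with at least 10 transcripts; 55.9% of MRAK and 57.5% of MRuc transcripts were detected on 11 of 11 arrays.

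The brightest MR transcripts had nearly the same signal in every ganglion. MRuc007gex, the brightest, read 17.46, 17.37, 17.29, 17.19 and 17.18 in contralateral rats 1, 2, 3, 5 and 6, and 17.08 (lowest), 17.24 (median) and 17.34 (highest) on the CFA arrays. Its groups overlapped, and the log2 fold change of CFA over contralateral was -0.07 (standard error 0.09, limma adjusted p = 0.752). MRNR_003557 followed with a mean signal of 16.98 and a fold change of 0.11 on the log2 scale (standard error 0.07). MRAK165779 had a mean of 16.92, MRAK004319 of 16.72, MRBC052489 of 16.70, MRAK149013 of 16.66, MRAK083095 of 16.55 and MRAK150706 of 16.51. Their log2 fold changes lay between -0.01 (MRAK149013) and 0.17 (MRBC052489), and none of these 8 transcripts passed a limma p of 0.05. MRFT35910, the brightest of its prefix, had a mean signal of 14.78 and differed by 0.06 between the sides (standard error 0.07).

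Across all MR transcripts the median standard deviation between arrays of a group was 0.336 on the log2 scale, beside 0.308 over all probes. For the 2484 transcripts detected on all arrays it was 0.297, and the median spread among the 3 spots of a transcript on an array was 0.169. For 1572 of them the spread between arrays was the larger of both. The SD between arrays is that of means of the spots, and the other that of single spots, so they are unlike measures. The steadiest was MRAK011425, with an SD of 0.045 between arrays, readings of 12.35 to 12.45 on the contralateral side and 12.37, 12.40 and 12.49 as the lowest, median and highest on the CFA side. MRAK007744 (SD 0.052), MRAK021210 (0.056), MRAK161468 (0.060) and MRuc009bey (0.064) came next. All 5 had a mean signal over 12, and their signals differed by less than 0.1 between the sides.

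**Figure D2:**
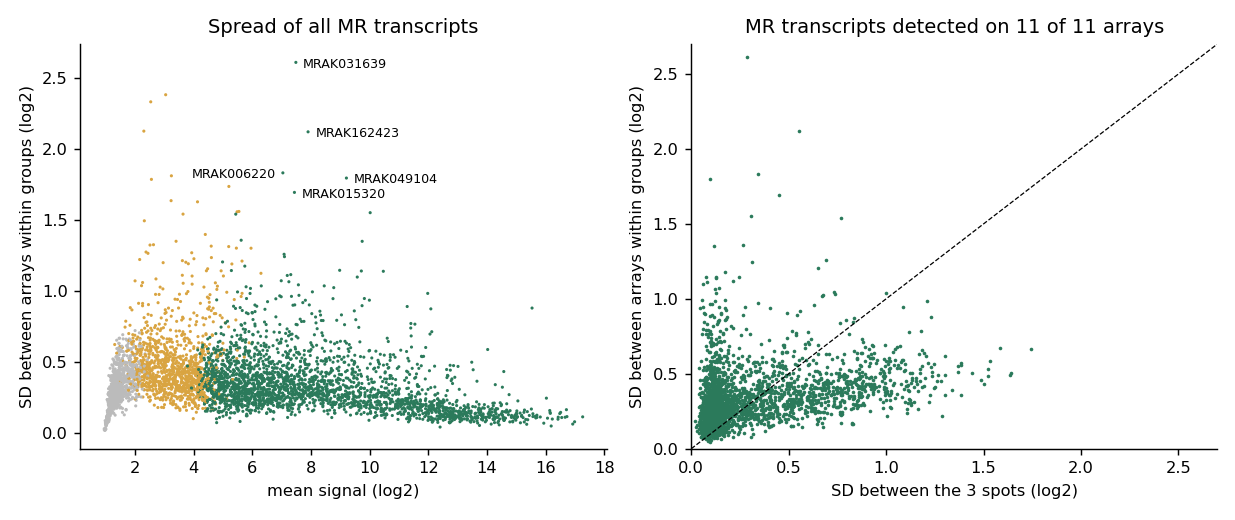
Left, SD between arrays within groups against the mean signal (both log2) for the 4407 MR transcripts, in the colours of detection on 11 (green), 1 to 10 (yellow) and 0 (grey) arrays; the 5 named transcripts have the largest SD of those detected on 11. Right, for the 2484 detected on 11 arrays, the SD between arrays (of means of the spots) against the SD between the 3 single spots of an array. The dashed line marks equal values and 1572 points lie above it.

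At the other end, 28 of the 2484 had an SD over 1, and several of these were high in the same pair of ganglia. MRAK031639 had the largest SD, 2.61. It read 6.77, 6.47, 6.69, 5.50 and 5.79 in contralateral rats 1, 2, 3, 5 and 6. On the CFA arrays it read 6.22, 12.99, 13.00, 6.19, 6.25 and 6.49 (rats 1, 2, 3, 5, 6 and 8), so that the ganglia of rats 2 and 3 on slide 4 stood about 6.73 above the mean of the other 9 arrays. MRAK162423 read 12.27 and 12.72 in those 2 ganglia and between 6.41 and 7.17 elsewhere. MRAK006220 read 10.98 and 11.09 there against 4.98 to 6.56, and MRAK015320 read 10.92 and 11.18 against 5.97 to 7.09. The contralateral ganglia of the same rats, on slides 3 and 1, were not raised.

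In all, 12 MR transcripts (0.272% of 4407) lay over 2 log2 units above every other array on both arrays of slide 4, as did 40 probes in all (0.162%). They were collected after the values were seen. In each of the 12 all 3 spots were higher on these arrays than on any other array where the spot was measured. Besides the 4 named above they were MRAK083472, MRAK162038, MRAK042323, MRAK083052, MRuc007pdb, MRuc009glr, MRAK013672 and MRAK030450. MRAK083472 read 7.57 and 7.25 on slide 4 and at most 1.90 elsewhere, and it was well above background on these 2 arrays alone. MRAK042323 was likewise detected there alone, at 6.79 and 6.20. The differences between slide 4 and the other arrays ran from 2.92 (MRAK030450) to 6.73 (MRAK031639), and 0 of the 12 passed a limma p of 0.05 for CFA against contralateral, the smallest being 0.0743 (MRAK006220). On the same arrays the anterior pituitary list read 14.5 and 8.84, the central glia list 11.3 and 13.1 and the neutrophil list 10.06 and 11.99. Their part in the 12 transcripts was not tested. No other slide with more than 1 array had an MR transcript over 2 units above all others.

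The 12 MR transcripts (0.272%) that lay over 2 units below every other array did so on slide 3, the contralateral arrays of rats 1 and 2, as did 122 probes in all (0.494%). MRuc008msl and MRAK089766 are examples, with means of 6.71 and 1.41 on slide 3 and of 10.42 and 6.05 on the other arrays. Here the spots did not act alike. Of the 36 spots, 25 were over 2 units lower on slide 3 in the processed signal before normalisation, and 25 of these 25 lay in rows 1 to 127 of the 532 rows. In 7 of the 12 transcripts the third spot, from a later row, had been marked as an outlier on both arrays and left out, although its median difference from the other slides was 0.01. MRAK152421 shows the pattern, with differences of -3.35 and -3.42 for the spots in rows 30 and 42 and of -0.01 for the spot in row 312.

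**Figure D3:**
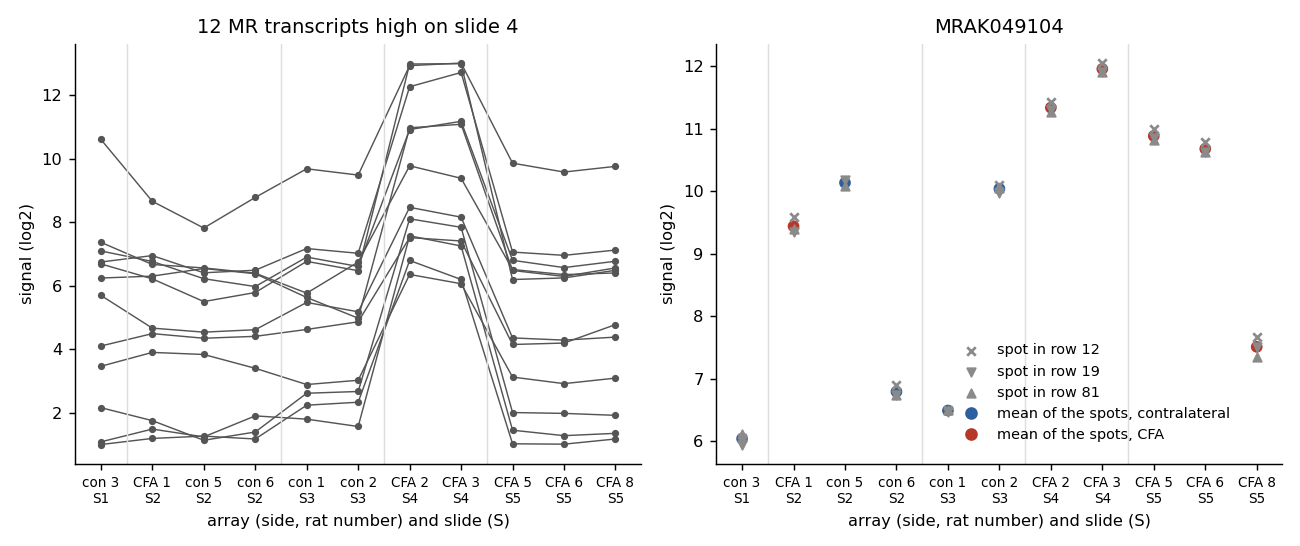
Left, signal (log2) of the 12 MR transcripts that lie over 2 units above all other arrays on slide 4, on each array in order of slide (con, contralateral; number, rat; S, slide); each line joins the values of 1 transcript. Right, MRAK049104, with its 3 spots in grey and their mean coloured by side; the spots coincide while the arrays range from 6.04 to 11.95.

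The main comparison asked which MR transcripts differ between the ganglion of the inflamed side and the contralateral one. At the thresholds of the study, a p without adjustment of at most 0.05 and a change of over 2 times, 52 MR transcripts (1.18%) passed, beside 2.02% of all probes. Of these 31 were higher on the CFA side (beside 1.15% of all probes) and 21 lower (beside 0.863%). Without contralateral rat 1 there were 16 higher and 19 lower, and without contralateral rat 2 16 higher and 22 lower. The shares of all probes in these fits are not given, so these counts are not read as a trait of MR transcripts. At p of 0.05 or less alone 511 passed (11.6%, beside 10.8%), 193 of them higher (background 4.02%) and 318 lower (background 6.75%), and at 0.001 or less with the same fold 8 passed (beside 0.203% of all probes). With Benjamini-Hochberg adjustment in limma 0 MR transcripts passed 0.05 (0.0% of all probes), with 511 at an unadjusted p of 0.05 or less. The groups did not overlap for 57 transcripts (1.29%, beside 1.2% of all probes), 29 higher (background 0.531%) and 28 lower (0.664%). The median log2 fold change was -0.03 over MR transcripts and -0.04 over all probes. Each MR value is a mean of 3 spots, whereas most probes have 1 spot. Of the 3950 other probes with 3 spots 1.04% passed the thresholds, and of the probes with 1 spot 2.49%, so the share of MR transcripts was near that of probes with as many spots.

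By prefix the 52 comprised 44 MRAK, 6 MRuc, 1 MRNR and 1 MRX transcripts, which is 1.23% of MRAK and 0.876% of MRuc, and 0 of 61 MRBC transcripts passed. Most were small and dim. For 42 of the 52 the log2 fold change was under 1.5 in size, 32 had a mean signal below the MR median, and 21 were detected on all 11 arrays, 30 on some and 1 on 0. Their groups did not overlap for 13, and 34 went the same way in each of the 5 rats with both sides. The 52 were chosen for a difference on these same arrays, so both counts follow in part from the choice and are a description.

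MRAK049104 had the largest difference of the MR transcripts. Contralateral rats 1, 2, 3, 5 and 6 read 6.49, 10.04, 6.04, 10.13 and 6.79, and CFA rats 1, 2, 3, 5, 6 and 8 read 9.44, 11.33, 11.95, 10.88, 10.68 and 7.51. Both sides thus held low and high ganglia, with nothing between 7.51 and 9.44, and the groups overlapped. CFA over contralateral gave a log2 fold change of 2.40 (standard error 0.99, a 5.28-fold higher signal, limma p = 0.0342, adjusted p = 0.447), with a two-sided exact permutation p of 0.0541. The CFA side was higher in 5 of 5 rats, by 0.75 (rat 5) to 5.91 (rat 3) log2 units, and the difference with the rat as a block was 2.96. Within slide 2 it was 0.98, with 1 high and 1 low contralateral array. The 3 spots differed little, with an SD of 0.095 against 1.80 between arrays, so the arrays differed far more than the spots did. They lie in rows 12, 19 and 81, all among the first rows of the array, so they do not compare distant rows. Without any one of 7 arrays (contralateral rats 1, 3 or 6, CFA rats 2, 3, 5 or 6) the p rose to between 0.0576 and 0.0882 and the difference lay between 1.94 and 2.32. It passed the thresholds also without background subtraction (2.10) and with normexp correction (1.84), where 2 and 1 MR transcripts in all did so.

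The other transcripts higher on the CFA side were dimmer. MRAK158751 read 7.65, 7.34, 8.69, 7.86 and 8.25 in contralateral rats 1, 2, 3, 5 and 6, and 8.63, 8.94 and 9.26 (lowest, median and highest) on the CFA arrays. Only contralateral rat 3 lay among the CFA values. CFA over contralateral gave a log2 fold change of 1.00 (standard error 0.23, limma adjusted p = 0.239, exact permutation p = 0.00433), 1.20 within slide 2, and higher on the CFA side in 5 of 5 rats. Without contralateral rat 2 it was 0.85, under the fold limit, and it was also under that limit without any one of 5 other arrays. With the median of the spots and outliers kept it was 0.55. The 3 spots gave 1.44, 0.70 and 0.87. The first, in row 106, read 5.76 and 5.40 in contralateral rats 1 and 2, where the spots in rows 229 and 285 read between 8.23 and 8.69.

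MRAK006843 had the smallest p of the MR transcripts that passed the thresholds. It read 2.95, 3.02, 2.55, 3.47 and 3.09 on the contralateral and 3.74, 4.19 and 4.51 on the CFA arrays, and the groups did not overlap. The signal was 2.14-fold higher on the CFA side (standard error 0.18 on the log2 scale, limma p = 0.000101, adjusted p = 0.184), and the exact permutation p of 0.00216 is the smallest that 462 splits allow. Within slide 2 the log2 difference was 1.23. It was 0.98 without contralateral rat 3, and 0.53 when the median of the spots was taken with outlying spots kept. The transcript was well above background on 9 of 11 arrays.

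MRAK133305 read 3.91, 4.24, 4.26, 5.25 and 4.32 on the contralateral and 5.29, 5.43 and 5.75 on the CFA arrays. Contralateral rat 5 came within 0.1 of the CFA values, and the others stood lower in these means of the spots. This is a log2 fold change of 1.06 (standard error 0.21, limma adjusted p = 0.196), 0.55 within slide 2 and 0.94 without contralateral rat 1. Without contralateral rat 5, the array nearest the CFA values, it was 1.28, with a limma adjusted p of 0.0131. Its spots gave 2.03, 0.09 and 1.07, so that the middle spot, in row 191, hardly differed between the sides. With the median of the spots and outliers kept the difference was 0.19, under the fold limit. The groups overlapped in those medians, at 4.36 to 5.72 on the contralateral and 5.15 to 5.73 on the CFA arrays.

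In several further transcripts the lowest values were those of contralateral rats 1 and 2, both on slide 3. MRAK014161 read 3.88 and 3.67 there, 5.85, 6.45 and 6.30 in contralateral rats 3, 5 and 6, and 6.65, 6.81 and 6.92 on the CFA arrays. This is a log2 fold change of 1.57 (standard error 0.50, limma adjusted p = 0.366), and 0.34 within slide 2. Its low values rest on the spots in rows 53 and 128. The spot in row 308 was left out as an outlier in contralateral rats 1, 2 and 3, where its processed signals were 136, 136 and 165, above its signals on the 6 CFA arrays (45.4 to 134). MRAK137812 read 3.67 and 3.89 on slide 3, 5.43, 5.39 and 5.39 on the other contralateral arrays and 5.62, 5.99 and 6.27 on the CFA arrays, a log2 difference of 1.22, and of 0.95 without contralateral rat 1. MRAK157002 read 3.74, 1.56, 4.78, 5.01 and 4.87 on the contralateral and 5.14, 5.33 and 6.48 on the CFA arrays. Its difference was 1.51, but 0.90 without contralateral rat 2, and without CFA rat 2 it was 1.31 with a p over 0.05. For MRAK157002 the spot in row 384 had signals of 62.6 and 64.4 in contralateral rats 1 and 3, above 5 of the 6 CFA arrays. These 3 transcripts were named because their groups did not overlap, so their separation is a description.

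MRuc007grn, the largest difference among the MRuc transcripts, read 2.03, 2.65, 4.13, 6.29 and 6.06 on the contralateral and 5.58, 6.09 and 6.34 on the CFA arrays. This is a log2 fold change of 1.77 (standard error 0.73, limma adjusted p = 0.446, exact permutation p = 0.0563), and 0.16 within slide 2. Leaving out any one of 7 arrays brought the p above 0.05, with differences down to 1.22. The spots in rows 14 and 32 had processed signals of 4.29 and 5.31 on contralateral rat 1, where the spot in row 231 had 72.5 and was left out as an outlier. The same held for rat 2 (7.42, 6.04 and 61.7) and rat 3 (16.9, 18.6 and 87.0), and the spot in row 231 alone gave a difference of -0.21.

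The remaining named transcripts that were higher were MRAK039598 (1.03), MRAK016144 (1.12), MRAK089283 (1.44), MRAK140563 (1.61) and MRAK152421 (1.64 on the log2 scale). Within slide 2 these came to 0.47, 0.33, 0.41, 0.36 and 0.30. MRAK016144 was not well above background on any contralateral array, and was so on 4 of 6 CFA arrays. Against a limit of detection its signal was 1.69-fold higher on the CFA side. This sets the brighter group's mean against the lowest signal of any probe well above background on each array of the dimmer group. The value depends on that limit and is no lower bound, as the log2 difference was 0.21 with a floor of 8 and 0.09 with normexp correction. Of the 31 transcripts that were higher, 28 kept their sign within slide 2. The arrays of slide 2 are among those on which the transcripts were chosen, so this count is a description. With slide as a block the median log2 fold change over all MR transcripts was 0.05.

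Of the lower transcripts MRAK078136 was not well above background on any CFA array, so its exact fold is not known. It was well above background on 3 of 5 contralateral arrays. Against the limit described for MRAK016144 it was 2.50-fold lower on the CFA side. It read 4.68, 3.96, 5.32, 3.24 and 3.38 on the contralateral and 1.44, 1.85 and 2.77 on the CFA arrays, without overlap in these means of the kept spots. The log2 fold change was -2.10 (standard error 0.41, limma p = 0.000373, adjusted p = 0.196, exact permutation p = 0.00216). It was lower in 5 of 5 rats, and leaving out any 1 array kept the difference between -2.32 and -1.80. Within slide 2 the difference was -0.54. These values leave out the spot in row 419 on CFA rat 1, marked as an outlier. Its processed signal there was 37.0, above its signals on the contralateral side (14.0 to 36.5). The spots in rows 442 and 487 had 6.15 and 6.06 on CFA rat 1. With outlier spots kept the difference was -1.96, and with the median of the spots and outliers kept -1.93. In those medians CFA rat 3 (3.07) lay above contralateral rat 5 (2.87), so the groups overlapped.

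MRAK043901 read 5.54, 5.30, 5.59, 4.28 and 5.00 on the contralateral and 3.47, 3.75 and 4.43 on the CFA arrays, with CFA rat 2 above contralateral rat 5. The log2 fold change was -1.32 (standard error 0.24, limma adjusted p = 0.196), and -0.91 within slide 2. There the spot in row 304 was left out as an outlier on contralateral rat 6 alone. Its processed signals were 2.63 on CFA rat 1 and 4.24 and 2.99 on contralateral rats 5 and 6. With the median of the spots and outliers kept the log2 fold change over all arrays was -0.59, under the fold limit. In MRAK043901 the spot in row 498 gave -2.99, while those in rows 304 and 513 gave -0.57 and -0.34. MRAK020698 read 5.64, 5.44, 6.24, 5.29 and 5.08 against 3.82, 4.52 and 5.02, a difference of -1.07, and of -0.16 within slide 2. It fell short of the fold limit without contralateral rat 3 (-0.90) or CFA rat 5 (-0.94), and with the median of the spots and outliers kept (-0.70).

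MRuc008bws was lower by -1.61 over all arrays and higher by 0.49 within slide 2. MRAK144529 (-1.17), MRuc007slx (-1.04) and MRAK019764 (-1.01) were lower by -0.30, -1.02 and -0.31 there. With the median of the spots and outliers kept they came to -1.28, -0.57 and -0.55 over all arrays. MRuc007slx and MRAK019764 were thus under the fold limit. In MRAK019764 the spot in row 517 gave -2.37, and those in rows 291 and 443 gave -0.43 and -0.58. The spots of MRuc007slx in rows 14, 205 and 444 gave -0.37, -1.34 and -1.38. MRAK144529 was not well above background on any CFA array, and was so on 3 of 5 contralateral arrays. Against the same limit as MRAK078136 it was 1.38-fold lower. With normexp correction its log2 difference was -0.12. Of the 21 lower transcripts, 14 kept their sign within slide 2, again on arrays that served to choose them. In RNA of a whole ganglion, fewer cells with a transcript and less of it per cell cannot be told apart. The 11 ganglia come from 6 rats, 5 of them with both sides, and the p-values measure the spread between these ganglia.

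**Figure D4:**
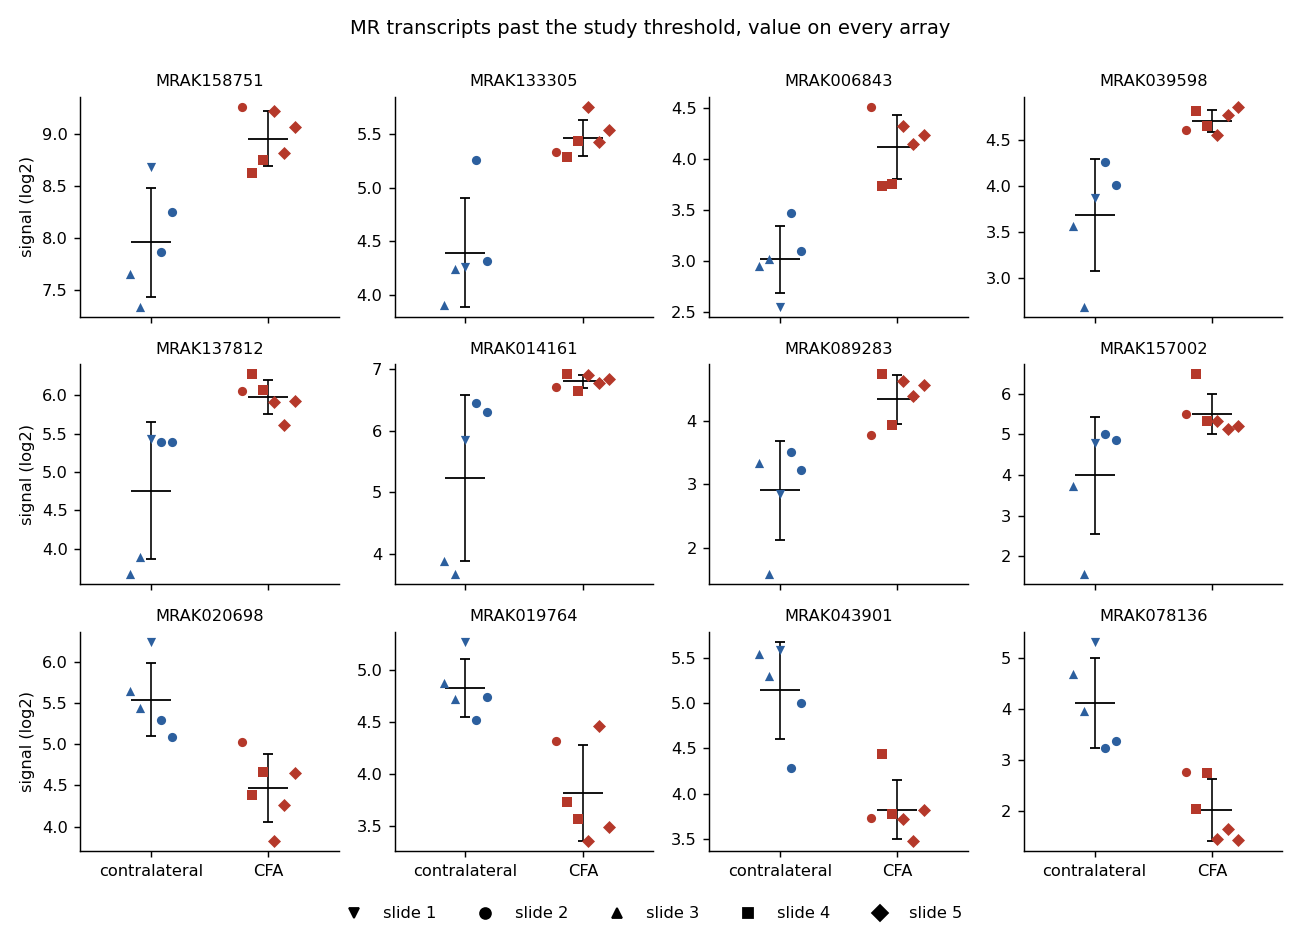
Signal (log2 of the normalised intensity) on every array for 8 MR transcripts that were higher and 4 that were lower on the CFA side, blue for contralateral (n = 5) and red for CFA (n = 6), with the marker shape giving the slide and bars the mean and SD. The axes differ between panels and do not start at 0; in MRAK014161 and MRAK137812 the arrays of slide 3 lie apart from the other contralateral arrays.

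The 3 spots of an MR transcript lie in different rows, and the comparison depended on the row. Taken as single spots, 342 MR spots passed the thresholds as higher and 279 as lower. Of the higher spots 288 (84.2%) lay in rows 1 to 133 of the array, and of the lower spots 240 (86.0%) lay in rows 400 to 532. These blocks held 24.4% and 25.2% of all MR spots. Counts for the spots of other probes are not given, so the pattern is not read as particular to MR transcripts. The median log2 fold change of MR spots was 0.14 in rows 1 to 133, -0.06 in rows 134 to 266, -0.13 in rows 267 to 399 and -0.15 in rows 400 to 532. In the first block the median deviation of MR spots was -0.15, -0.18 and -0.13 in contralateral rats 1, 2 and 3, 0.11 and 0.03 in contralateral rats 5 and 6, and between -0.00 and 0.17 on the CFA arrays. The contralateral arrays of slide 2 thus lay among the CFA arrays.

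The transcripts that passed followed the same rows. Of the 93 spots of the 31 higher transcripts, 53 lay in rows 1 to 133, and of the 63 spots of the 21 lower ones, 42 lay in rows 400 to 532. All 3 spots passed a log2 difference of 1 in 9 of the 52 transcripts, 2 spots in 30 and 1 spot in 13. At least 1 spot on some array had been left out as an outlier in 43 of the 52 (82.7%), beside 2246 of all 4407 MR transcripts (51.0%). With those spots kept 35 MR transcripts passed, of which 31 were among the 52. With the median of 24 row bands removed from each array 43 passed, 33 higher and 10 lower, 40 of them among the 52 (1.71% of all probes passed). With the median of the spots and outliers kept 67 passed, 35 of them among the 52 (2.11% of all probes). Whether the row or the outlier marks cause the differences was not tested.

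**Figure D5:**
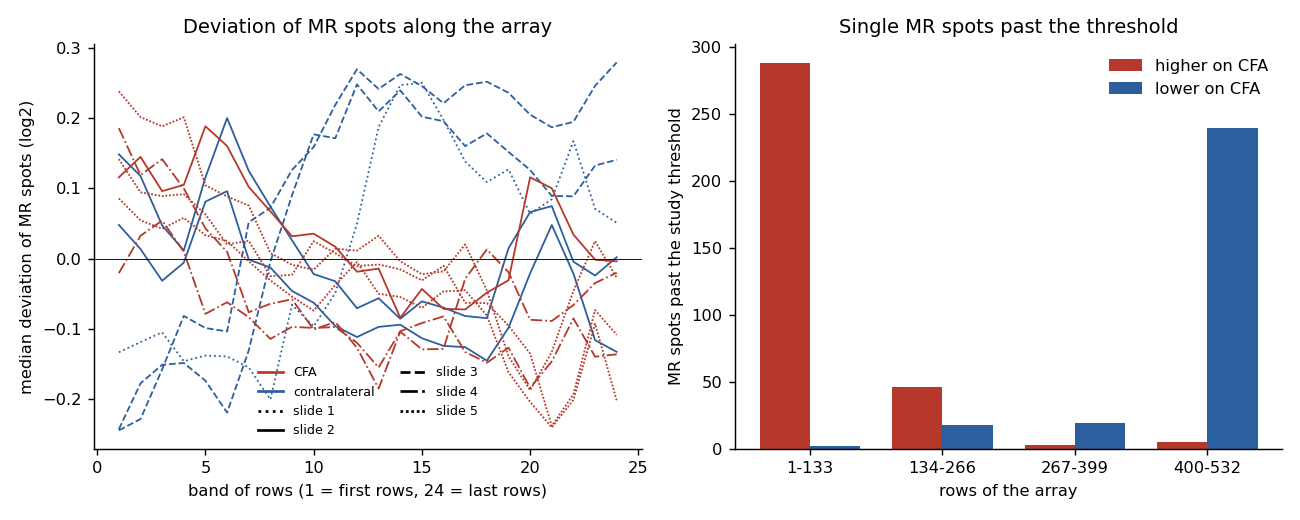
Left, median deviation of MR spots from their mean over arrays (log2) in 24 bands of rows, 1 line per array, coloured by side and styled by slide. Right, number of single MR spots past the thresholds in each block of rows, with 288 of 342 higher spots in the first rows and 240 of 279 lower spots in the last.

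The 52 were also fitted with slide, scan day or rat as a block. With slide as a block, where CFA rat 1 alone is set against 2 contralateral arrays of slide 2 and assumed to vary like the other arrays, 106 MR transcripts passed (2.56% of all probes), 4 of them among the 52: MRAK006843, MRAK045143, MRAK158751 and MRuc007slx. At a limma adjusted p of 0.05 it left 9 (0.28% of all probes). With scan day as a block, where CFA rat 1 alone is set against the 5 contralateral arrays, 71 passed (1.8% of all probes), 3 of them among the 52: MRAK006843, MRAK043901 and MRAK158751. With slide as a random block 15 passed (0.944%), 13 of them among the 52. With the rat as a block 36 passed (1.5%), 18 higher and 18 lower, 32 of them among the 52. The fixed blocks of slide and of scan day both rest on CFA rat 1, so their calls are not independent of each other. On that array MRAK006843 lacks its spot in row 255, which was left out as an outlier. The same spot was kept on contralateral rats 5 and 6, where its processed signal was as low. For MRAK043901 the spot in row 304 was left out on contralateral rat 6 and kept on CFA rat 1. Without the CFA array of rat 1 82 MR transcripts passed (2.79% of all probes).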

How the data were processed

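RNA of 6 CFA-side and 5 contralateral TRG was hybridised to single-colour rat lncRNA arrays. The intensity values deposited by the authors are processed signals (background subtracted) written by Agilent Feature Extraction 11.0.1.1. A value table deposited by the authors holds linear, quantile-normalised intensity (median 184.665 in each column, r of 0.99926 to 0.99981 with the array's own scanner values). It served as an alternative.

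From the 43553 spots 1417 controls were left out, spots marked as outliers (1.384%) were set missing, and log2 intensity computed from the deposited signals was quantile normalised. Spots were averaged to 24684 probes. CFA was compared with contralateral over all probes with limma 3.58.1 (R 4.3.3; Python 3.11.15, pandas 2.3.3 and matplotlib 3.10.9 for counts and plots), with Benjamini-Hochberg adjustment. The thresholds of the study were a p of 0.05 or less and a fold over 2. Single transcripts were also tested by a two-sided exact permutation test over 462 splits of the arrays. The code was tested on simulated data. The number of arrays limits the precision.

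Named transcripts were those the study names, up to 8 per direction by fold among those past the thresholds without overlap, with 1 sign in 5 rats and detected throughout the brighter group, up to 4 per direction by p, 6 by fold, the 8 brightest with the brightest of each larger prefix, and the 5 largest and 5 smallest SDs among those detected on 11 arrays. Members and lists were chosen with earlier results of these data known. The slide 3 and slide 4 transcripts were collected after their values were seen.

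Both sides come from the same animal, so rat numbers pair the arrays. Deviations of the sides of a rat correlated over 0.1 in 1 of 5 rats, 0 of 5 CFA arrays correlated best with their own rat, and the sides lay on different slides. Alternatives were other background corrections (from the median signal, as the mean signal was not used), scalings, filters, blocks and each array left out. A random slide block, each spot alone, and the median of the spots with outliers kept were added after seeing the data.

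Lists of cell markers were read as mean log2 signals, with the range on CFA and then on contralateral arrays. Satellite glia read 10.4 to 11.2 and 10.4 to 11.1, Schwann cells 15.9 to 16.6 and 15.7 to 16.2, skeletal muscle 7.05 to 7.65 and 7.33 to 7.65, and red blood cells 15.3 to 16.4 and 15.9 to 16.8. Macrophages read 9.72 to 10.7 and 9.82 to 10.1, T cells 7.50 to 8.86 and 8.17 to 8.66, and fibroblasts 15.2 to 15.9 and 15.4 to 16.0.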

Additional observations from a re-analysis of the deposited data

Results flagged for a closer look

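In 3 of 76 groups of named MR transcripts 1 array stood apart from the others by its gap relative to the range, where chance gives about 1 in 20. MRAK043901 read 4.43 on the CFA array of rat 2, and the next CFA value was 3.82. MRAK157002 read 6.48 on the CFA array of rat 2, and the next was 5.51. Its spot in row 384 had a processed signal of 314.3 there, and those in rows 38 and 145 had 27.8 and 36.9. MRAK165779 read 17.06 on the contralateral array of rat 2, and the next was 16.90.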

How the results depend on the processing

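The count of 52 MR transcripts past the thresholds was 2 without background subtraction (MRAK049104 and MRAK086453), 1 with normexp correction (MRAK049104), 21 with a floor of 8 (16 higher, 5 lower), 33 with dim probes filtered out (25 higher, 8 lower), 106 with slide as a block, 15 with slide as a random block, 511 without a fold limit and 8 at a p of 0.001 or less. It was 64 in the value table of the authors (45 higher, 19 lower, beside 31 and 21) and 36 with the rat as a block, the paired fit. Leaving out 1 array gave 35 to 106, with 106 without contralateral rat 5, 99 without contralateral rat 6 and 82 without CFA rat 1. The count of 0 at a limma adjusted p of 0.05 was 9 with slide as a block, 1 with scan day as a block (MRAK051849) and 0 to 23 with 1 array left out, 23 without CFA rat 1 and 1 without contralateral rat 5. Without CFA rat 1, 0.49% of all probes passed that adjusted p. Shares of all probes are not given for the other fits with 1 array left out. They are also not given for the background corrections, the floor, the filter, the kept outlier spots and the value table of the authors. These counts thus describe the MR transcripts alone. The median log2 fold change of -0.03 turned to 0.0522 with slide as a block, 0.0148 with row bands centred and 0.0056 with the scan day blocked. It was -0.05 to -0.01 with 1 array left out. The sign turned for the third spot alone in MRAK039598 (-0.20), MRAK152421 (-0.23) and MRuc007grn (-0.21), and with slide as a block in MRuc008bws (0.49). Of 555 alternative values of the 20 named transcripts that passed, 359 stayed past the thresholds and 192 kept their sign but not the call. The causes were not tested. Dim signals limit the comparison, since 31 of the 52 were not detected on every array.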
